A study of Mus musculus with 6 samples.

Results

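The genes described here code for the ligands, receptors, antagonists and signal transducers of the Wnt pathway in mouse Leydig cells, the steroid-producing cells of the testis interstitium. They were chosen by symbol alone, as all rows of the deposited gene table named Wnt, Fzd, Lrp5 or Lrp6, Ror, Ryk, Porcn, Wls, Frzb, Sfrp, Dkk, Wif1, Notum, Apcdd1, Kremen, Rspo, Lgr, Rnf43, Znrf3, Dvl, Axin, Apc, Gsk3, Ctnnb1, Nkd, Lef1, Tcf7, Tle, Bcl9, Vangl, Prickle or Daam. Sfrp1 was left out by the same rule. This gave 49 of 10580 listed genes, or 0.463%. The mouse annotation holds 89 coding genes with such names, so 40 of them had no row in the table and were not analysed here. A row means that the gene passed a cut in the authors' comparison of the stages. That cut was not given in the sources used here, and more genes have a row than the paper calls changed. Counts of listed genes, here and below, thus do not show which genes are expressed. The share of all genes that were listed was not computed, so these counts were not set against it.

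RNA was sequenced from fetal Leydig cells (FLCs) at E18.5 in 3 libraries and from adult Leydig cells (ALCs) at P100 in 3 libraries. Both stages came from testes of mice heterozygous for an Nr5a1-GFP transgene, and cells with strong GFP fluorescence were sorted. The transgene follows Nr5a1, a nuclear receptor gene of steroidogenic cells that Sertoli cells express too, at a lower level. Embryos were carried by CD-1 mothers, and FLCs of several sorts were pooled to reach enough RNA. The only measured value used here is the authors' mean over all 6 libraries of read counts divided by library size factors, given below as the mean normalized count. It joins both stages, so FLCs and ALCs were not compared, and no spread between libraries or read depth per library stands behind a value. As both stages had 3 libraries, the mean of either stage can be at most 2 times the listed value. The table lists genes selected by the authors' comparison of the stages, so ratios and orders between genes need not hold within either stage. In bulk RNA, fewer cells of a type and less RNA per cell cannot be told apart.

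Wnt proteins are secreted, lipid-modified signals that bind Frizzled receptors together with Lrp5 or Lrp6. In the canonical branch this stops a cytoplasmic complex of Axin, Apc and the kinase Gsk3 from marking β-catenin for breakdown, and β-catenin then joins TCF/LEF proteins on DNA in place of the Tle corepressors. Other branches act through Ror and Ryk receptors or through planar polarity proteins without β-catenin. In the gonad the pathway is best known from the ovary, where Wnt4 and Rspo1 promote ovarian fate, while in the fetal testis it is held low.

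The Leydig label of the sorted cells was checked against marker genes. All 5 of Cyp11a1, Insl3, Cyp17a1, Hsd3b1 and Star were listed, with mean normalized counts of 87502 to 283675. Of markers of other testis cells, 2 of 3 Sertoli genes were listed (Dhh 89.0 and Amh 137) and Sox9 was not. The progenitor marker Tcf21 was at 216, and Nr2f2 had no row. Of 3 germ cell markers 1 was listed, Ddx4 at 184, and of 3 endothelial markers 1, Esam at 102. The macrophage genes Csf1r and Emr1 stood at 982 and 177, and the immune marker Cxcl2 at 11.6, while none of 3 peritubular myoid markers had a row. A missing row shows only that a marker was not in the authors' selection, not that its cell type was absent. The part of these other cells in the levels below was not tested.

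The Wnt pathway genes covered nearly 4 orders of magnitude, from Notum at a mean normalized count of 2.69 to Ctnnb1 at 18187. Their median was 508, with quartiles of 89.9 and 1702, against a median of 679 over all listed genes with quartiles of 119 and 1928. The ratio of the medians was 0.749, and 20 of the 49 genes (40.8%) lay above the median of all listed genes. There was 1 gene below 10, 12 stood from 10 to below 100, 16 from 100 to below 1000, 19 from 1000 to below 10000 and 1 at 10000 or more. The 5 highest genes, Ctnnb1, Wnt6, Wnt5a, Tle2 and Lrp6, held 53.5% of the summed mean normalized counts of all 49.

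**Figure D1:**
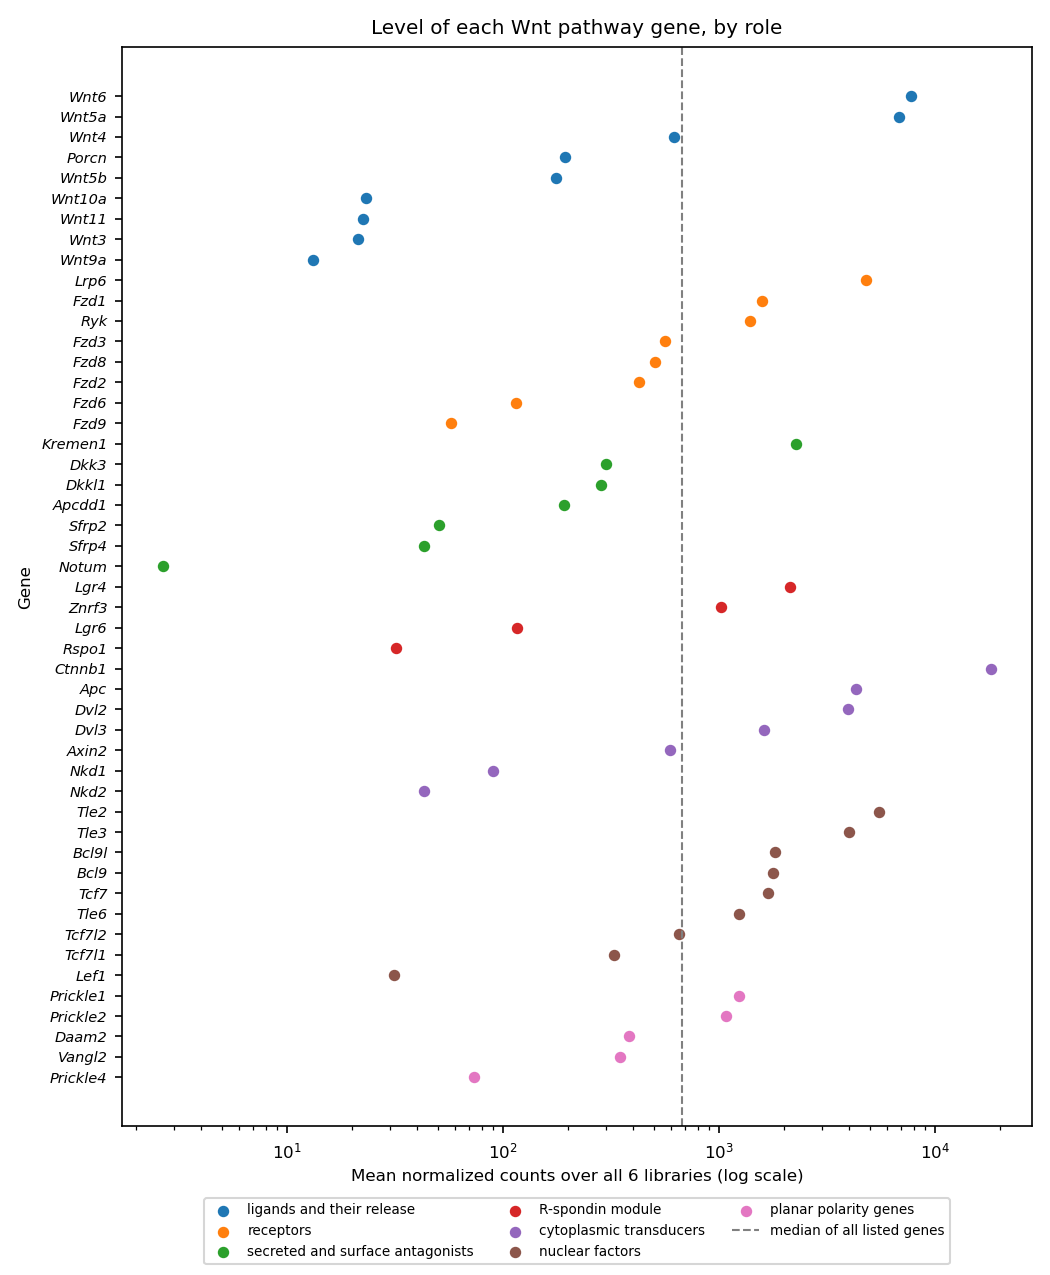
Mean normalized count over all 6 libraries (horizontal axis, log scale) of each of the 49 Wnt pathway genes, grouped by role and marked by colour, with 1 point per gene and no error because only the mean over libraries is used. The dashed line is the median of all 10580 listed genes, 679, and 20 genes lie to its right, 6 of them nuclear factors.

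A long transcript gives more reads than a short one, so ratios and shares between named genes are given after division by the exonic length of the gene in kilobases (kb), while places among all listed genes are given on the undivided count unless stated. On the scale per kb the median of the Wnt pathway genes was 89.8 per kb, against 147 per kb over the listed genes, and 20 of the 49 again lay above it. Of the summed level per kb, cytoplasmic transducers held 31.0%, ligands with their release enzyme 30.7%, nuclear factors 18.7%, receptors 8.63%, antagonists 3.99%, planar polarity genes 3.49% and the R-spondin module 3.42%. Without division by length the ligands held 19.5% and the transducers 35.7%, so the near-equal shares of these classes depended on the scale.

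**Figure D2:**
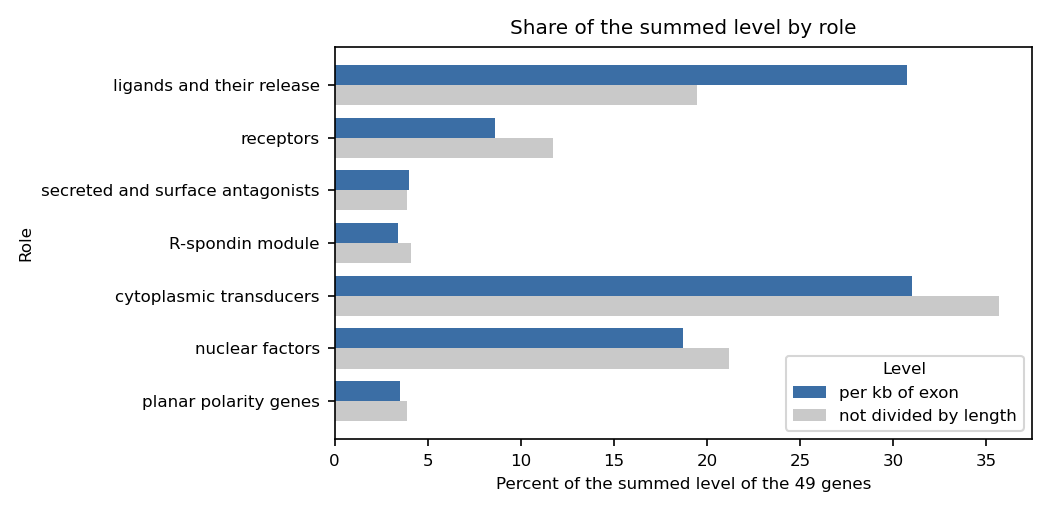
Percent of the summed level of the 49 genes held by each role, with the level per kb of exon in blue and the mean normalized count not divided by length in grey. Ligands and cytoplasmic transducers held 30.7% and 31.0% per kb, and 19.5% and 35.7% without division.

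Among the ligands, 8 of the 19 Wnt genes were listed, and 2 of them held nearly all of the ligand level. Wnt6 (chromosome 1, 74771892 to 74785322, GRCm38) had a mean normalized count of 7809, higher than 96.0% of listed genes. Wnt5a, the best known ligand of the branches without β-catenin, had 6873, higher than 95.0% of listed genes, and higher than 87.9% of them per kb. Per kb of exon, Wnt6 stood at 3563 and Wnt5a at 879, a ratio of 4.06. Their exonic lengths were 2192 and 7823 bases, and per kb of coding sequence, whose length is near equal in both, the ratio was 1.19. Wnt4, the ligand of ovarian fate that the adrenal and kidney use too, came next with a mean normalized count of 623, or 149 per kb. It lay near the middle of the listed genes on both scales, whose medians were 679 and 147 per kb. Wnt5b, the near relative of Wnt5a, had a mean normalized count of 176 and 66.5 per kb. Of the genes for making ligands active, Porcn, whose enzyme adds the lipid to Wnt proteins, had 195 and 64.9 per kb, and the transport receptor gene Wls had no row.

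The other ligands were near the bottom of the table. Wnt10a, Wnt11, Wnt3 and Wnt9a had mean normalized counts of 23.4, 22.5, 21.4 and 13.2. Even if 1 stage held all of the reads, its mean could not pass 46.8 for Wnt10a and 26.4 for Wnt9a. Wnt10a is the next gene to Wnt6 among the listed Wnt genes on chromosome 1, on the same strand and 6193 bases past its end, yet its level per kb was 376-fold lower. The 8 Wnt genes summed to 4682 per kb, of which Wnt6 alone made up 76.1%. That share depends on the scale. Without division by length they summed to 15562, of which Wnt6 had 7809 and Wnt5a 6873.

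The sequence around the start of Wnt6, the highest ligand per kb, is shown beside that of Wnt9a, the lowest, to let their composition be compared. Both are RefSeq windows on GRCm38.p6, from 250 bases before to 50 bases after the start, and read 5′ to 3′ on the plus strand, at chr1:74771642-74771941 for Wnt6 and chr11:59306680-59306979 for Wnt9a. Capitals mark GC boxes, the letters GGGCGG on either strand.
Wnt6: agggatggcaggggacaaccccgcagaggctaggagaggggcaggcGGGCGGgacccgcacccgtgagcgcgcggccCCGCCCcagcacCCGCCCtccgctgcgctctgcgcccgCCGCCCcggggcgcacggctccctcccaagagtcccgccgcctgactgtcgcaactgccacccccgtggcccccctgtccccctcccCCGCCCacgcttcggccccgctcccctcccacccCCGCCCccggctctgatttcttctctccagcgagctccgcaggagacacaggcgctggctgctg
Wnt9a: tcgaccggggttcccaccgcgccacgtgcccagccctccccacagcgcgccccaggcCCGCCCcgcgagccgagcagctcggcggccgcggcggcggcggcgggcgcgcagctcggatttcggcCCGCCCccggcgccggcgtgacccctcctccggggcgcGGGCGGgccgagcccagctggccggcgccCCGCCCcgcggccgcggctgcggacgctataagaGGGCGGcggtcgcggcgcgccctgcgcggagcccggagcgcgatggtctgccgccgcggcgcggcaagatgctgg
GC boxes numbered 6 in the Wnt6 window and 5 in the Wnt9a window, and GC content was 76.7% and 83.3%. Both windows are examples, and whether these features go with the level of a gene was not tested.

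The receptor genes were led by 3 genes of like level per kb. Fzd1, a Frizzled receptor, stood at 377 per kb (mean normalized count 1583). Lrp6, the co-receptor of the canonical branch, stood at 353 per kb (4828), and Ryk, a kinase-like Wnt receptor, at 307 per kb (1392). Their order is not firm, since Lrp6 led per kb of coding sequence with 998 against 822 for Fzd1, and no spread between libraries is known for any neighbours in these orders. Lrp5, the partner of Lrp6, and the receptor genes Ror1 and Ror2 had no row.

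Of 10 Frizzled genes, 6 were listed, at 673 per kb in sum, and Fzd1 made up 56.0% of it. Fzd2 followed at 118 per kb, Fzd8 at 85.0, Fzd3 at 44.2, Fzd9 at 25.3 and Fzd6 at 24.0. Fzd3 and Fzd6, both known for planar polarity, had mean normalized counts of 565 and 115. The summed level per kb of the Wnt genes was 6.96-fold that of the Frizzled genes, and 4.77-fold without division by length. These sums hold only the listed genes, 8 of 19 Wnt and 6 of 10 Frizzled genes. They give no ratio of all ligands to all receptors.

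**Figure D3:**
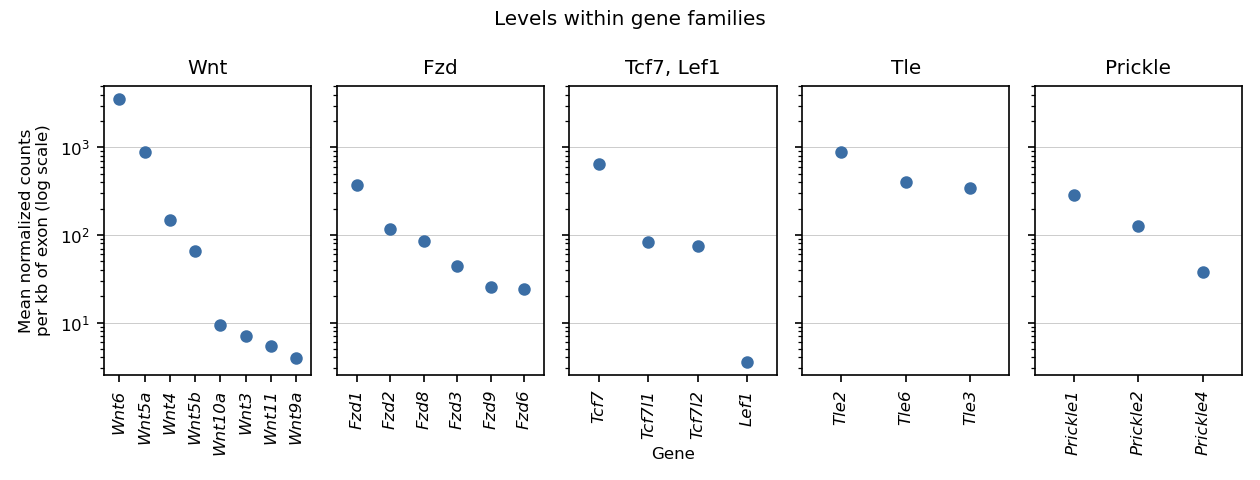
Mean normalized count per kb of exon (vertical axis, log scale) of each listed gene in the Wnt, Fzd, Tcf7 and Lef1, Tle and Prickle families, with 1 point per gene and no error because only the mean over libraries is used. Wnt6 at 3563 and Wnt9a at 3.96 span the widest range, while the 3 Tle genes lie from 346 to 890.

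Antagonists that act outside the cell or at its surface were mostly low. Kremen1, whose protein removes Lrp6 from the surface together with Dkk proteins, had a mean normalized count of 2281 and 295 per kb, and lay above the median of all listed genes on both scales. Of the other genes placed in this class by name, Dkkl1 lay above that median per kb, and none did on the undivided count. Of the Dkk family, 2 of 5 genes were listed, and both are its atypical members. Dkkl1 had a mean normalized count of 285 and 181 per kb, and Dkk3 had 301 and 89.8 per kb. Dkk1, Dkk2 and Dkk4, whose proteins bind Lrp5 and Lrp6, had no row, so the levels of these Kremen partners are not known here. The decoy genes Sfrp2 and Sfrp4, whose proteins bind Wnt ligands, had mean normalized counts of 50.5 and 43.4, or 33.9 per kb in sum. Sfrp1, outside the chosen genes, had 8247, or 1886 per kb, which was 55.7-fold that sum, 96.6-fold per kb of coding sequence and 87.8-fold without division. With Sfrp1 counted in, the antagonists held 14.4% of the summed level per kb rather than 3.99%. Apcdd1, a membrane inhibitor, had a mean normalized count of 193 and 15.0 per kb. Notum, the enzyme that strips the lipid from Wnt proteins, had the lowest count of all, 2.69, so that neither stage could have a mean above 5.38.

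In the R-spondin module, which controls how many Frizzled receptors stay at the surface, the receptor gene Lgr4 stood above the ligand gene Rspo1 in the mean over both stages. Lgr4, a receptor for R-spondins, had a mean normalized count of 2148 and 365 per kb. Rspo1, the only listed R-spondin gene of 4, had 32.2 and 16.6 per kb, which was 22.0-fold below Lgr4, or 66.8-fold without division by length. Znrf3, the ubiquitin ligase that removes Frizzled receptors, had 1021 and 129 per kb, while its relative Rnf43 had no row. Lgr6 had a mean normalized count of 116 and 16.9 per kb, and Lgr5 had no row. Znrf3 and Kremen1, both negative regulators at the surface, lie 14765 bases apart on chromosome 11.

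The cytoplasmic transducers were led by Ctnnb1, the β-catenin gene, with a mean normalized count of 18187, higher than 98.8% of listed genes, and 3503 per kb. β-catenin also serves in cell adhesion, and its RNA level does not tell the uses apart. Per kb, Ctnnb1 was 13.0-fold above Apc (269) and 32.2-fold above Axin2 (109), the scaffold genes of the complex that breaks β-catenin down. Without division by length the ratio to Apc, a long transcript, was 4.20. The Dishevelled genes, which pass the signal on from Frizzled, were Dvl2 at 631 per kb and Dvl3 at 252 per kb, and Dvl1 had no row. Neither Gsk3 gene had a row, nor did Axin1. Nkd1 and Nkd2, inhibitors that bind Dishevelled proteins, were low, with mean normalized counts of 89.9 and 43.4. Of the exons of Dvl2, 18.3% overlap Acadvl on the other strand, and 14.6% of those of Ctnnb1 overlap Ulk4, and whether counting used strand was not given in the sources used here.

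Nuclear factors were the class with most genes above the median of all listed genes, 6 of 9. All 4 TCF/LEF genes were listed, at 811 per kb in sum, and Tcf7 made up 79.9% of it. Tcf7 stood at 648 per kb, Tcf7l1 at 84.0, Tcf7l2 at 75.1 and Lef1 at 3.56. The Lef1 mean normalized count of 31.3 allows no more than 62.6 in either stage. Of the 5 Tle genes 3 were listed, with Tle2 at 890 per kb, Tle6 at 403 and Tle3 at 346. Their sum was 2.02-fold that of the TCF/LEF genes, or 3.97-fold without division by length. This sum holds listed genes only, as Tle1 and Tle4 had no row. The Tle genes were grouped by name, and which of them act as corepressors here was not tested. Tle2 and Tle6 lie end to end on chromosome 10 with 58 bases between them, and differed by 2.21-fold per kb of exon, 3.42-fold per kb of coding sequence and 4.45-fold without division. Bcl9l and Bcl9, whose proteins tie β-catenin to its coactivators, were close to each other at 228 and 212 per kb.

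Planar polarity genes had a median of 386, or 49.9 per kb, below the medians of all listed genes, 679 and 147 per kb. Of the 5 genes, 2 lay above that median on the undivided count. Prickle1 had a mean normalized count of 1247 and 287 per kb, and Prickle2 had 1084 and 126 per kb. Vangl2, the membrane partner of Prickle proteins, had 349 and 49.9 per kb, and Daam2, which links Dishevelled to actin assembly, had 386 and 39.6 per kb. Prickle4 had a mean normalized count of 74.1, but 57.2% of its exonic bases are shared on the same strand with Gm21981, so its level is uncertain. On the opposite strand, 62.2% of the exonic bases of Prickle4 overlap Tomm6os, and 29.4% of those of Notum overlap Notumos. Such overlap matters only if counting ignored strand, which was not given in the sources used here.

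Several genes of the pathway are feedback targets of canonical signalling in many tissues. Of 12 such genes 7 were listed, a count that depends on the authors' selection. Their mean normalized counts were 1702 for Tcf7, 1021 for Znrf3, 598 for Axin2, 193 for Apcdd1, 89.9 for Nkd1, 31.3 for Lef1 and 2.69 for Notum. On the undivided count Tcf7 and Znrf3 lay above the median of all listed genes, 679, and per kb Tcf7 did (648 against a median of 147) while Znrf3 did not (129).

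The start windows of the pathway genes were searched for 4 motifs on both strands. RefSeq gave 48 windows of 300 bases for 33 of the 49 genes, and some windows of 1 gene overlap. The TCF/LEF core CTTTGA occurred in 5 of the 48 (10.4%), in Fzd1, Lef1, Prickle2, Wnt11 and Wnt5b, against 12.4% of 10498 windows of listed genes and 16.0% of all 32851 windows. The NR5A1 core CAAGGTCA was in 0 of the 48 windows and in 1.19% of windows of listed genes. TATAAA was in 14.6%, against 7.64% of windows of listed genes and 13.6% of all windows. The GC box GGGCGG was in 72.9%, against 57.7% and 35.7%. The windows of the pathway genes were also richer in GC, with a median of 65.8% against 59.7%. Among windows of at least 60% GC the GC box was in 88.2% of 34 pathway windows and 83.2% of 5220 windows of listed genes. In these windows TATAAA was in 4 of the 34 (11.8%) against 3.08%. The TCF/LEF core was in 1 of the 34 (2.94%) against 6.63%. A match of letters shows no binding, and genes without a window were not searched. The Wnt11 window is shown as the ligand case with both a TCF/LEF core and a TATA motif, at chr7:98834862-98835161 on the plus strand of GRCm38.p6, with the core in capitals as it reads on the opposite strand.
Wnt11: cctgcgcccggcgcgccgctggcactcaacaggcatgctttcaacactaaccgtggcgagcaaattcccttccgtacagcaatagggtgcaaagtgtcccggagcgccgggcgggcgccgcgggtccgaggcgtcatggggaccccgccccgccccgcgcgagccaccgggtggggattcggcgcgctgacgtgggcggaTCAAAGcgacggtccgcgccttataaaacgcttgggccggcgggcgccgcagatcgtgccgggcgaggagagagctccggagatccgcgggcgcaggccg
The core starts 50 bases before the RefSeq start. Wnt11 had a mean normalized count of 22.5, or 5.43 per kb.

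**Figure D4:**
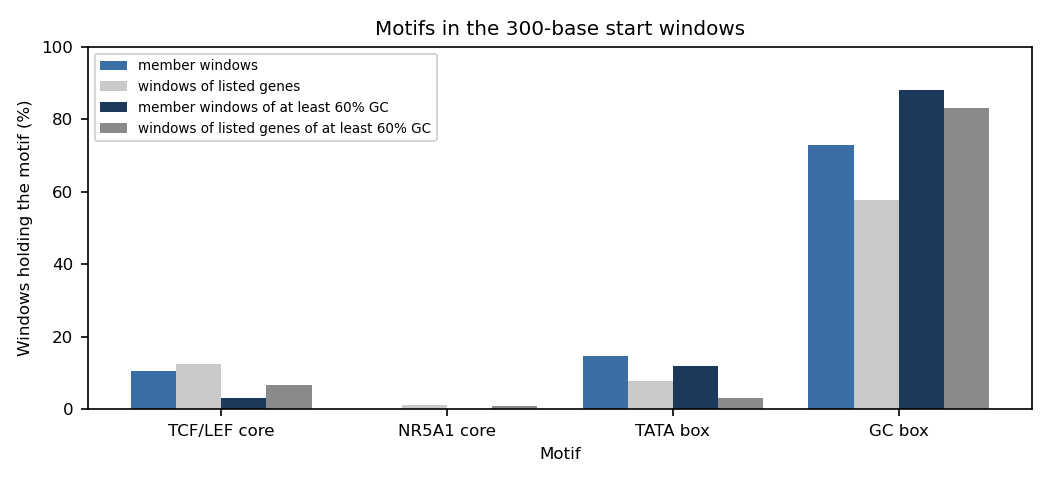
Percent of RefSeq start windows that hold each motif on either strand, for the 48 windows of the Wnt pathway genes (blue) and the 10498 windows of listed genes (light grey), and for those of at least 60% GC (34 in dark blue and 5220 in dark grey). The GC box is the most frequent motif in every set, and its gap between the sets narrows from 72.9% and 57.7% to 88.2% and 83.2% among GC-rich windows.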

How the data were processed

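RNA of FLCs and ALCs (3 libraries each, from separate samples per the labels) was made into stranded total RNA libraries and sequenced as 50 bp paired-end reads. The authors demultiplexed with Casava 1.8.2, mapped with GemTools, assigned reads to Gencode genes of GRCm38, dropped genes with under 10 reads and compared the stages with DESeq2. The deposited table lists only genes that passed a cut in that comparison, more than the paper calls changed. Of it, one signal per gene was used, the authors' mean of counts divided by size factors over the 6 libraries. Its other columns hold the authors' fold change, standard error, test statistic, p-value and adjusted p-value, and were not used. Depth per library is thus unknown here. A sheet naming the libraries was not used. One marker gene is not reported here.

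Levels were divided by the union of exons in GENCODE vM21 (GRCm38). This is not the release that the paper names for counting, so lengths may differ from those of the counted gene models. A current symbol tied 10223 genes to GENCODE vM21 and an older symbol 298, and 59 had none. Sequences and windows came from RefSeq (GRCm38.p6). Python 3.11.15, pandas 2.3.3, numpy 2.4.6 and matplotlib 3.10.9 were used, and the scripts were checked on small constructed cases. Every gene of the rule was named. Members, roles and lists were chosen with earlier results of these data known, so all values are descriptions without a test. Alternatives were no division by length, coding length, Sfrp1 counted in, a mean of at least 10, and Ryk moved to the polarity genes.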

Additional observations from a re-analysis of the deposited data

How the results depend on the processing

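The share of each role class in the summed level depended on the scale and on the genes counted. Without division by length, ligands held 19.5%, receptors 11.7%, antagonists 3.91%, the R-spondin module 4.10%, cytoplasmic transducers 35.7%, nuclear factors 21.2% and planar polarity genes 3.88%. Per kb of coding sequence, an alternative chosen after seeing the data, the same classes held 34.0%, 8.35%, 5.99%, 2.87%, 26.7%, 19.0% and 3.10%. With Sfrp1 among the antagonists they held 27.4%, 7.69%, 14.4%, 3.05%, 27.6%, 16.7% and 3.11%. With Ryk among the planar polarity genes, receptors held 6.64% and planar polarity genes 5.48%. With genes of a mean of at least 10 only, antagonists held 3.98%. The ratio of the median of the Wnt pathway genes to that of all listed genes was 0.749, and became 0.611 per kb of exon, 0.708 with a mean of at least 10 and 0.656 per kb of coding sequence. The count of genes above the median of all listed genes was 20, 20, 20 and 17 in that order. Of the 7 leading genes, 6 were the same both without division and per kb of coding sequence, and Lrp6 took the place of Fzd1.

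The alternative with coding length from RefSeq proteins was not run, as no protein table was used here. No fit without a library was made, since only the mean over libraries was used. No paired analysis was possible because the result comes from no test. Low means rest on few reads, and their counting error is unknown without depth. Exonic length is a union over annotated isoforms, and the isoforms in use were not measured here.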

Other observations

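Of 49 further genes of the pathway on a second list by name, outside the set above, 33 had a row, with a median mean normalized count of 942 and 20 above the median of all listed genes. The glypican genes Gpc4 and Gpc3, whose cell surface proteoglycans can hold Wnt ligands near their receptors, were the highest per kb of exon at 2816 and 2657, below Wnt6 (3563) and Ctnnb1 (3503). Gpc6, of the same family, stood at 7.66 per kb. Of the casein kinase 1 family, Csnk1d stood at 1356 per kb, Csnk1a1 at 702, Csnk1g3 at 217 and Csnk1e at 89.3. Tnks2, whose enzyme marks Axin for breakdown, stood at 716 per kb and its relative Tnks at 188. The secreted antagonist gene Sostdc1 was low, with a mean normalized count of 13.7. Igfbp4, whose secreted protein can also hinder Wnt signalling, had 3285, or 744 per kb, above Kremen1 (295). The polarity cadherin genes Celsr1 and Celsr2 stood at 13.8 and 4.52 per kb, below Prickle1 (287) and Vangl2 (49.9). Other polarity genes of this list differed, with Scrib at 433 per kb, above Prickle1, and Ptk7 at 162 and Invs at 66.2, above Vangl2. Fat4 and Dchs1 stood at 32.3 and 20.5 per kb, below both.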
